A study of Homo sapiens with 16 samples.

Results

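The genes described here are the laminin chains, the basement membrane proteoglycans and their partners, and the integrins, which together make the contact between a cell and its matrix. They were taken by symbol from the table of counts: 12 laminin chains, 18 integrin alpha subunits, 8 integrin beta subunits, the nidogens NID1 and NID2, the proteoglycans HSPG2 and AGRN, and the fibronectin gene FN1, which gave 43 of 59385 listed symbols. The data are 16 RNA-Seq libraries from spontaneously beating cardiomyocytes made from human iPS cells (hiPSC-CMs). The cells came from the WTC-11 line of a healthy donor and were between day 15 and day 35 of differentiation. In the overexpression experiment 4 libraries came from cells given a plasmid that expresses LINC00881, a cardiac long noncoding RNA, and 4 from cells given a plasmid for bacterial alkaline phosphatase (control plasmid). In the knockdown experiment 4 came from cells given a LINC00881 GapmeR, a short antisense molecule through which RNase H cuts the matching RNA, and 4 from cells given a scrambled oligonucleotide. All groups share 1 cell line, so other lines were not compared, and the iPS cells had been kept on Matrigel, a matrix extract that is itself rich in laminin protein. The submitters describe the libraries as biological replicates without saying whether they came from separate differentiations, so p-values measure the spread between these libraries.

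A laminin is a trimer of 1 alpha, 1 beta and 1 gamma chain, which polymerizes into a sheet on the cell surface. Nidogens and the heparan sulfate proteoglycan perlecan (HSPG2) join this sheet to the collagen IV network, and agrin (AGRN) joins it to dystroglycan. Integrins are receptors of 1 alpha and 1 beta subunit that bind these proteins outside the cell and the actin cytoskeleton inside it. In striated muscle, laminin with the alpha 2 chain and integrin alpha 7 beta 1 hold the muscle fiber to its basement membrane, and loss of LAMA2 causes a congenital muscular dystrophy.

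Total counts per library ran from 9833533 to 16415025 in the overexpression experiment and from 26979162 to 37332620 in the knockdown experiment. The biological coefficient of variation, the typical spread of a gene between libraries beyond counting error, was 0.0792 in the former and 0.445 in the latter. In the knockdown experiment replicates 1 and 2 of each group stood apart from replicates 3 and 4, which carry a later run of tube numbers. LINC00881 changed as intended, by 2.07 (log2 fold change, with standard error, SE, 0.13) with the plasmid and by -2.27 (SE 0.40) with the GapmeR. Its groups did not overlap in either experiment. With the GapmeR the change was -2.85 (SE 0.35) in replicates 1 and 2 and -1.40 (SE 0.33) in replicates 3 and 4. This difference had an adjusted p = 0.108 from edgeR, and the pooled change an adjusted p = 0.377. Between the scrambled oligonucleotide libraries alone, LINC00881 in replicates 3 and 4 differed from that in 1 and 2 by -1.325 (log2, adjusted p = 0.0424 from edgeR). Cardiomyocyte markers were abundant in every group, with a summed level of 15 genes between 26000 and 44220 CPM (counts relative to library size, scaled by the TMM method within each experiment). The summed level of 10 blood and platelet markers stayed between 0.1633 and 1.292 CPM. In such bulk libraries, fewer cells of a type and less RNA per cell cannot be told apart.

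To show the sequences in front of the members that moved, the 250 bases upstream of the RefSeq start are printed for the 3 members with the smallest p among those higher with overexpression, HSPG2, NID2 and LAMB2, and for ITGB6, the single member that was lower. The positions on GRCh38.p14 are chr1:21937311-21937560 for HSPG2, chr14:52069060-52069309 for NID2, chr3:49133051-49133300 for LAMB2 and chr2:160200273-160200522 for ITGB6, and each gene lies on the minus strand. Capitals mark GC boxes (GGGCGG on either strand), the short motif bound by Sp1 family factors, and in ITGB6 a CArG box, the motif of serum response factor.
HSPG2: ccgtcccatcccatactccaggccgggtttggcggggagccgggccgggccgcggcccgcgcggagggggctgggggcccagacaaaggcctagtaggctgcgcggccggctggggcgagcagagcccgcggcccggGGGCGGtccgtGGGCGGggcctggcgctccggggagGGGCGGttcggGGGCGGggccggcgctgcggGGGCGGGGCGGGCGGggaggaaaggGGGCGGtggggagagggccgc
NID2: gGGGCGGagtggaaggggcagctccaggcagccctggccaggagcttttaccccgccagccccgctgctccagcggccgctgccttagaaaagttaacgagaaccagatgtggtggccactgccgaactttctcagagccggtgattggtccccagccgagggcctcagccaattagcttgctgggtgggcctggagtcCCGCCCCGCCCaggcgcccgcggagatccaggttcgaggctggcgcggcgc
LAMB2: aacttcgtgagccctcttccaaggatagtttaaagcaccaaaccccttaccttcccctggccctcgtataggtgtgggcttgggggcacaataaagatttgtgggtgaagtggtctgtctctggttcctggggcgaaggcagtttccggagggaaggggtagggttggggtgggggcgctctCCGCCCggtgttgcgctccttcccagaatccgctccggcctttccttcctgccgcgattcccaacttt
ITGB6: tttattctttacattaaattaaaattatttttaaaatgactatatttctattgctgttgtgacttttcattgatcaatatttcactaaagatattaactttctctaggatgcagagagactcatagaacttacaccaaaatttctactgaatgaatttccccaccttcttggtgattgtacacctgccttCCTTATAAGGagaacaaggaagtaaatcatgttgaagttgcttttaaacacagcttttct
The HSPG2 stretch held 8 GC boxes, with overlapping ones counted apart, and 82.8% of its bases were G or C. The NID2 stretch held 3 and the LAMB2 stretch 1, at 68.0% and 58.4% G or C. The ITGB6 stretch held none and had 30.0% G or C. RefSeq gave a promoter for 30 of the 43 genes. A GC box was present in 17 of these (56.7%), in 8 of the 10 with an entry that were higher with overexpression (80.0%), and in 42.3% of all 27305 promoters of the same length. The median share of G or C was 66.0% over the 30 promoters and 58.0% over all, so the motif counts and base composition moved together. The AP-1 motif TGANTCA, searched like the others on both strands, was in 1 of the 30 promoters and in 6.6% of all. The TATA motif spelled TATAAA was also in 1, against 11.1% of all. The motif AGATAA of cardiac zinc finger factors was in 1 of them, upstream of LAMA4, against 9.37%, and the CArG box was in ITGB6 alone, against 1.14%. These matches are descriptions of the sequence, and binding was not measured.

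In the control plasmid libraries the laminin transcripts were mostly those of the alpha 1, alpha 2, beta 1, beta 2 and gamma 1 chains. Levels are compared between genes as CPM per kb of exon, since longer transcripts give more reads. The length counts all annotated exons of a gene together, 15872 bases for LAMA1 and 10358 for LAMA2. The order of genes depends on this length. LAMA2 stood at 20.98 ± 1.40 CPM per kb (SD, n = 4) and LAMA1 at 20.84 ± 1.27 (SD, n = 4), a difference well within their spread. Before division by length, LAMA1 averaged 330.7 CPM and LAMA2 217.3 CPM. Next came LAMA5 at 5.24 ± 0.94 and LAMA4 at 2.03 ± 0.56 CPM per kb (SD, n = 4), which were clear of each other and of the first pair. LAMB2 at 40.34 ± 5.39 and LAMB1 at 36.64 ± 2.60 CPM per kb (SD, n = 4) overlapped in spread. LAMC1 made up 99.4% of the gamma chain signal at 61.78 ± 4.05 CPM per kb (SD, n = 4). The epithelial chains LAMA3 and LAMB3 were each under 1% of their families.

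Among the receptors, ITGB1, the common partner of the laminin and fibronectin binding alpha subunits, gave 84.8% of the integrin beta signal, followed by ITGB5 with 13.3% and ITGB3 with 1.45%. ITGAV, the alpha subunit of RGD-binding integrins, led the alpha subunits with 62.3% at 80.35 ± 6.77 CPM per kb (SD, n = 4). The laminin receptors ITGA6 and ITGA7 followed at 19.43 ± 0.58 and 12.71 ± 1.94 CPM per kb (SD, n = 4). ITGA5, the fibronectin receptor, stood at 6.24 ± 0.84 and ITGA3 at 4.00 ± 0.48 CPM per kb (SD, n = 4). The leukocyte subunits ITGAD, ITGAL, ITGAM, ITGAX, ITGB2 and ITGB7, with LAMB4 and LAMC3, passed the filter on low counts in neither experiment. ITGAL and ITGB7 had no count in any of the 8 overexpression libraries.

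The scrambled oligonucleotide libraries had a different order. LAMA1 at 5.44 ± 1.72, LAMA2 at 4.24 ± 0.16 and LAMA5 at 3.91 ± 1.92 CPM per kb (SD, n = 4) overlapped in spread. Before division by length, LAMA1 ran from 55.52 to 112.3 CPM and LAMA2 from 42.7 to 46.33 CPM, without overlap. LAMA4, at 2.71 ± 1.19 CPM per kb (SD, n = 4), overlapped with LAMA1 and LAMA5 but not with LAMA2. LAMB2 made up 75.8% of the beta chain signal at 50.61 ± 10.76 CPM per kb, against 23.4% for LAMB1 at 15.61 ± 0.08 (SD, n = 4). ITGAV was still the first alpha subunit, with 33.0%, and ITGA5, ITGAE, ITGA7 and ITGA6 came next, between 7.17 and 7.81 CPM per kb, with overlapping spreads. ITGAE is known as a receptor of T cells, and 7.59% of its exonic sequence overlaps genes on the other strand. The experiments were scaled separately, so levels are not compared between them. The plot of shares by library shows that the alpha laminins divided by replicate set in the knockdown experiment: LAMA4 made up 24.6% and 28.0% in scrambled oligonucleotide replicates 1 and 2, and 7.74% and 10.7% in replicates 3 and 4. With the GapmeR its shares were 28.0%, 27.1%, 8.10% and 9.46% in replicates 1 to 4, which repeats the division by set.

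**Figure D1:**
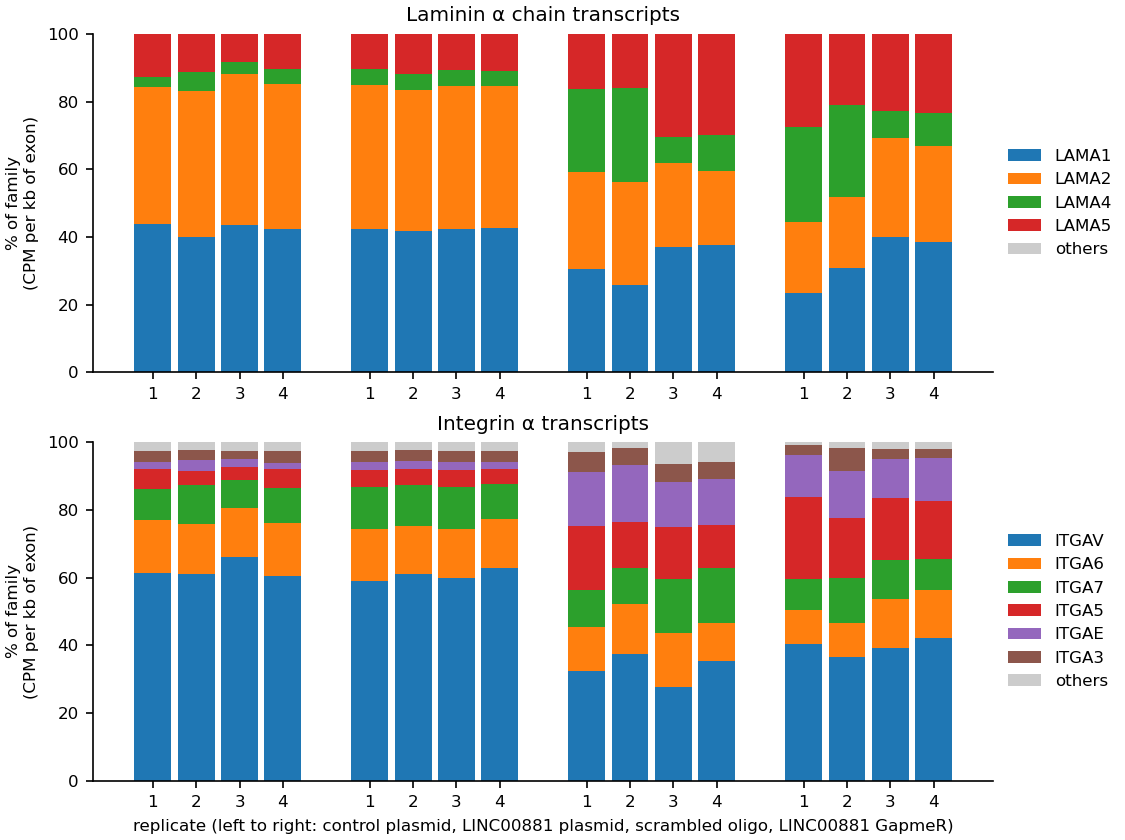
Share of each laminin alpha chain (top) and integrin alpha subunit (bottom) in its family, as a percent of summed CPM per kb of exon, 1 bar per library; bars within a group are replicates 1 to 4. LAMA1 and LAMA2 share most of the alpha laminin signal in all 8 overexpression libraries, while LAMA4 runs from 7.74% to 28.0% in the scrambled oligonucleotide libraries.

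The first comparison asked which of these genes responded to extra LINC00881. The matrix proteins were higher with LINC00881 plasmid by small amounts, while ITGB1, ITGAV and ITGA6, the most abundant integrin subunits, were not called. At an unadjusted p under 0.05, the cutoff used by the study, 15 of the 30 members tested were higher and 1 was lower (edgeR's quasi-likelihood test), against 5.87% of all 14355 genes called higher and 6.23% called lower. No member passed a Benjamini-Hochberg adjusted p under 0.05, which 1 gene of all tested did (0.00697%). Under this rule DESeq2 called 2 members, against 0.397% of all genes, and limma-voom 4, against 1.51%. The median log2 fold change was 0.18 over the members and 0.00 over all genes. All 5 nidogen, proteoglycan and fibronectin genes and 6 of 9 laminin chains were called higher, which makes 11 of 14 matrix proteins. Of 16 integrin subunits 4 were called higher, among them ITGA8, which is no support as given below. By sign alone, 13 of 14 matrix proteins and 12 of 16 integrin subunits had a positive fold change, against 7313 of all 14355 genes. The matrix proteins summed to between 2535 and 2854 CPM in the control libraries and between 2990 and 3159 CPM with LINC00881 plasmid, and the integrins to between 1705 and 1941 and between 1852 and 1936 CPM.

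Among the linkers of the basement membrane, HSPG2 (perlecan; chromosome 1, 21822245 to 21937297, minus strand, GRCh38) stood at 127.3, 122.8, 110.7 and 127.2 CPM in the control plasmid libraries and at 151.8, 147.0, 154.4 and 143.9 CPM with LINC00881 plasmid. Every treated library lay above every control library, with a log2 fold change of 0.29 (SE 0.07, adjusted p = 0.243 from edgeR). Of its exonic sequence, 11.72% overlaps LDLRAD2 on the other strand, and since counting did not use strand, reads there cannot be told apart. NID2 (chromosome 14, 52004803 to 52069228, minus strand), which ties laminin to collagen IV, stood at 266.3, 266.0, 259.4 and 318.4 CPM in the controls and at 330.1, 332.5, 361.7 and 341.7 CPM in the treated libraries. Its groups did not overlap either, although control replicate 4 came close, and the log2 fold change was 0.30 (SE 0.07, adjusted p = 0.243 from edgeR). RTRAF overlaps 29.96% of its exonic sequence on the other strand.

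The related NID1 stood at 40.92, 43.76, 44.19 and 41.57 CPM in the controls and at 47.68, 47.77, 48.52 and 46.26 CPM with LINC00881 plasmid. The treated libraries were all higher, by 0.16 on the log2 scale (SE 0.07, adjusted p = 0.395 from edgeR), but the call was lost with the replicate block and in 6 of the 8 fits that left out 1 library, all but those without control replicate 2 or 3. FN1 (chromosome 2, 215360440 to 215436172, minus strand), the fibronectin that integrins alpha 5 beta 1 and alpha V beta 3 bind, stood at 431.8, 410.9, 415.2 and 471.7 CPM in the controls and at 516.0, 477.7, 509.1 and 474.7 CPM in the treated libraries. The groups were separate by a narrow margin, with a log2 fold change of 0.19 (SE 0.07, adjusted p = 0.302 from edgeR). AGRN stood at 39.82, 38, 26.55 and 36.3 CPM in the controls and at 42.94, 41.42, 41.95 and 37.26 CPM with LINC00881 plasmid. Its groups overlapped and control replicate 3 was low, and the log2 fold change of 0.21 (SE 0.10) had an adjusted p = 0.403 from edgeR and shrank to 0.10 without that library.

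Of the laminins, LAMB2 (chromosome 3, 49121114 to 49133118, minus strand), the beta 2 chain found at the neuromuscular junction and in muscle, stood at 271.6, 312.0, 227.4 and 296.8 CPM in the controls and at 359.4, 343.3, 356.3 and 317.4 CPM with LINC00881 plasmid. The groups did not overlap, with a log2 fold change of 0.31 (SE 0.08, adjusted p = 0.247 from edgeR). LAMB1 stood at 279.3, 326.9, 285.9 and 300.9 CPM against 326.4, 337.2, 345.0 and 326.9 CPM, where the highest control library overlapped the treated ones (log2 fold change 0.16, SE 0.07, adjusted p = 0.348 from edgeR). LAMA1, the alpha chain of early embryonic basement membranes, stood at 330.6, 306.9, 329.0 and 356.3 CPM in the controls and at 383.8, 361.8, 384.8 and 374.5 CPM in the treated libraries. These did not overlap, and the log2 fold change was 0.19 (SE 0.06, adjusted p = 0.306 from edgeR). Genes on the other strand overlap 11.05% of the LAMA1 exonic sequence.

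LAMA2, the chain of mature muscle, stood at 199.2, 216.1, 219.5 and 234.6 CPM in the controls and at 252.4, 236.2, 251.3 and 239.9 CPM with LINC00881 plasmid. All treated libraries were higher (log2 fold change 0.17, SE 0.07, adjusted p = 0.334 from edgeR). LAMA4, a chain of vessels and heart muscle, stood at 16.03, 30.37, 20.51 and 27.07 CPM against 29.55, 29.85, 30.64 and 28.75 CPM. LAMA5, widespread in adult tissues, stood at 86.69, 78.7, 55.49 and 78.66 CPM against 85.55, 92.1, 87.25 and 85.61 CPM. Both overlapped between groups, and control replicate 3 was the lowest for LAMA5 and replicate 1 for LAMA4. Without these libraries the log2 fold changes were 0.11 for LAMA5 and 0.17 for LAMA4, and neither was called. With all libraries the log2 fold change was 0.32 for LAMA4 (SE 0.14, adjusted p = 0.361) and 0.23 for LAMA5 (SE 0.10, adjusted p = 0.369 from edgeR). LAMC1, the gamma chain of nearly all these trimers, was not called, at 483.8 to 558.0 CPM in the controls and 548.4 to 582.9 CPM in the treated libraries (log2 fold change 0.13, adjusted p = 0.432 from edgeR).

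**Figure D2:**
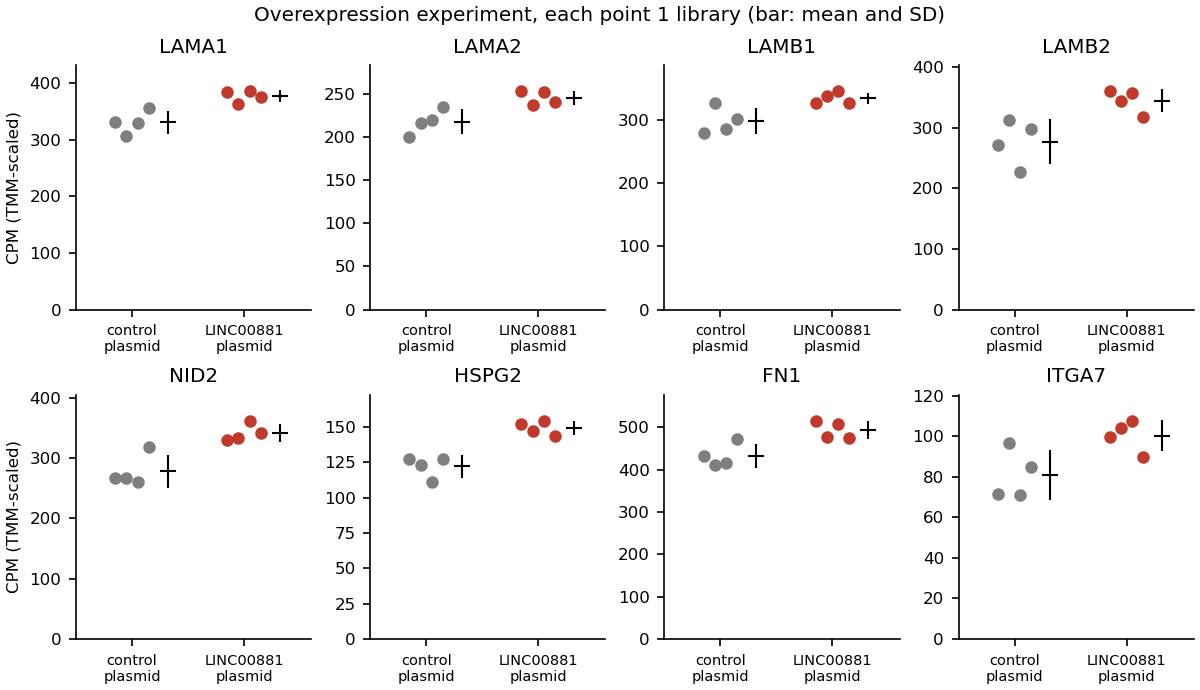
TMM-scaled CPM of 8 members in the overexpression experiment, 1 point per library, with the mean and SD of each group to the right of its points. HSPG2, NID2, LAMB2, LAMA1, LAMA2 and FN1 show treated libraries above every control library, and LAMB1 and ITGA7 overlap.

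Among the integrins, ITGA7, the laminin receptor of muscle, stood at 71.57, 96.88, 70.84 and 84.81 CPM in the controls and at 99.6, 104.3, 107.7 and 89.86 CPM with LINC00881 plasmid. Control replicate 2 lay above treated replicate 4, and the log2 fold change was 0.31 (SE 0.09, adjusted p = 0.271 from edgeR). ITGA3, a receptor for laminins with the alpha 3 or alpha 5 chain, stood at 39.72, 40.25, 32.8 and 44.12 CPM against 42.94, 44.51, 46.51 and 45.25 CPM, with overlap (log2 fold change 0.19, SE 0.09, adjusted p = 0.388 from edgeR). ITGB3, a partner of alpha V, stood at 6.96, 11.82, 8.03 and 8.35 CPM against 10.45, 13.07, 10.34 and 11.82 CPM. The groups overlapped through control replicate 2 (log2 fold change 0.35, SE 0.14, adjusted p = 0.350 from edgeR), and 51.57% of its exonic sequence is shared with AC068234.1 on the same strand.

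Both other called subunits were scarce. ITGA8, a receptor of nephronectin, had 5, 8, 8 and 7 counts in the controls and 12, 12, 17 and 13 counts in the treated libraries, with separate groups (log2 fold change 0.67, SE 0.30, adjusted p = 0.390 from edgeR). It passed the filter on low counts through the treated group alone, so its count among the members higher and without overlap is no support. It was not called without the filter, with DESeq2 or with the replicate block, and was called in 1 of the 8 fits that left out 1 library. ITGB6, which pairs with alpha V in epithelia, had 16, 27, 26 and 28 counts against 12, 16, 22 and 25 counts. It was the only member called lower, by a log2 fold change of -0.64 (SE 0.24, adjusted p = 0.330 from edgeR), and its groups overlapped. Of the ITGB6 exonic sequence, 20.61% is shared with AC092153.1 on the same strand. Apart from ITGA7, the more abundant subunits were near 0 in log2 fold change: ITGB1 at 0.01 (SE 0.07), ITGAV at 0.02 (SE 0.07), ITGA6 at 0.01 (SE 0.06) and ITGA5 at 0.05 (SE 0.09).

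In all, 8 members had groups that did not overlap, all of them higher, against 3.8% of all genes higher without overlap and 3.45% lower. HSPG2, NID2, LAMB2, ITGA7, FN1 and LAMA1 were called in each of the 8 fits that left out 1 library, and the count of members called ran from 9 to 16 in those fits. Leaving ITGA8 aside, LAMA2, LAMB1, LAMA4, ITGA3, ITGB3 and NID1 were not called without control replicate 1, and AGRN, LAMA4, LAMA5, ITGA3 and ITGB3 were not called without control replicate 3. Without treated replicate 2, AGRN, ITGA3, ITGB3, LAMA4, LAMA5, LAMB1 and NID1 were not called, and without treated replicate 3, AGRN, ITGA3, LAMA2, LAMA4, LAMA5, LAMB1 and NID1 were not. Among these fits ITGB6 was lost in the one without treated replicate 1. The count of members called was 9 without control replicate 1, 9 without treated replicate 2 and 9 without treated replicate 3. When all 16 libraries of both experiments shared 1 estimate of spread, no member was called with overexpression.

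The fold changes also followed base composition. Across genes with an annotated transcript, the log2 fold change with overexpression correlated with GC content at a Spearman rho of 0.504 over 13589 genes and 0.401 over the 30 members, a description across genes that share libraries. With offsets that remove trends on exon length and GC content, 11 members were higher and 1 was lower, against 3.84% and 5.56% of all genes. Of the 15 called without the offsets 9 were still called, AGRN, ITGA3, ITGA7, LAMA4, LAMA5 and NID1 were not, and ITGAV and LAMC1 were called in addition. HSPG2 moved from 0.29 to 0.12 (log2), while NID2 moved from 0.30 to 0.26. The members' median fell from 0.18 to 0.11.

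**Figure D3:**
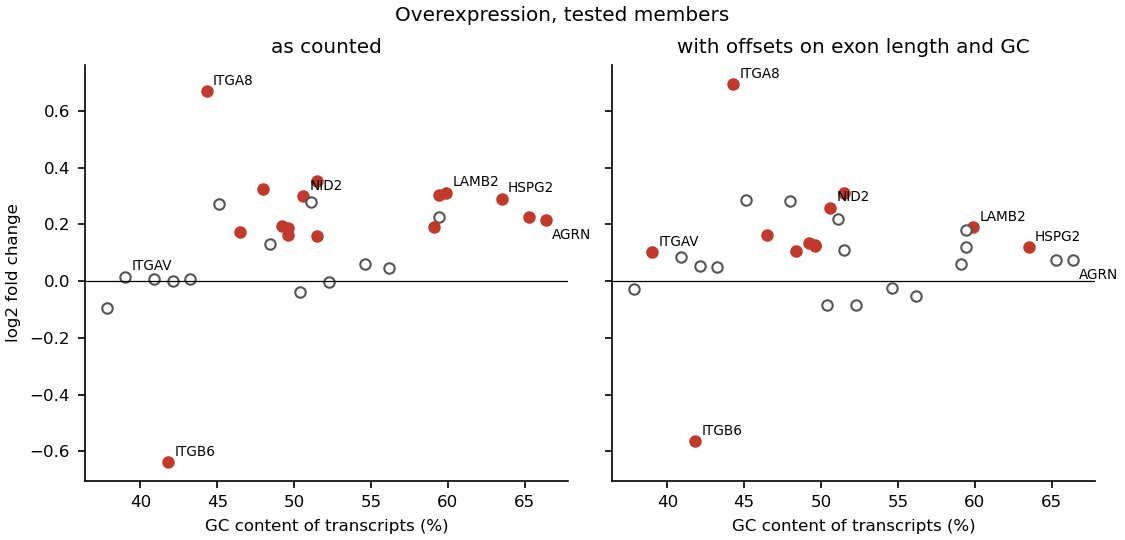
Log2 fold change with overexpression (vertical) against the GC content of the transcripts in percent (horizontal) for the tested members, leaving out 1 that is not reported, as counted (left) and with offsets on exon length and GC content (right). Filled red points have an unadjusted p under 0.05. Over all 30 tested members the Spearman rho is 0.401 as counted and 0.015 with the offsets.

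The summed markers of cardiomyocytes and of fibroblasts were higher with LINC00881 plasmid, and the sums of the other lists overlapped. The 15 cardiomyocyte markers summed to between 36040 and 39690 CPM in the controls and between 41260 and 43390 CPM with LINC00881 plasmid, without overlap, and none was at 0. The 11 fibroblast markers summed to between 277.2 and 298.7 and between 305.2 and 323.1 CPM, also without overlap, with FAP at 0 in the controls. The 7 smooth muscle markers (872.7 to 1009 against 986.7 to 1085 CPM) and the 10 endothelial markers (194.6 to 227.4 against 224.6 to 243.1 CPM) overlapped. The endothelial genes TIE1 and CLDN5 were at 0 in the controls and VWF and ERG in the treated libraries. KDR, at 188 to 220 and 218 to 237 CPM, made up nearly all of the endothelial sums. PDGFRA, at 148 to 162 and 164 to 170 CPM, was the largest part of the fibroblast sums. Sums of epicardial markers overlapped at 53.8 to 70.46 against 57.29 to 66.33 CPM. So did hepatic and endodermal markers (145.1 to 341.4 against 201.3 to 218.6 CPM) and pluripotent markers (92.74 to 104.8 against 93.56 to 98.58 CPM). By gene, 5 of 15 cardiomyocyte markers were called higher and 1 lower. Of 7 fibroblast markers tested, 1 was higher. Of all genes, 5.87% were called higher and 6.23% lower. The part of these cell types in the results on the members was not tested.

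Other genes of the same system were counted from lists drawn up with earlier results known. Of 18 further basement membrane genes tested, 10 were higher and none lower, with a median log2 fold change of 0.21, where 5.87% of all genes were higher and 6.23% lower. The same shares apply to the counts that follow. They included the collagen IV chains COL4A1 (0.20, SE 0.06) and COL4A2 (0.31, SE 0.09), the collagen IV crosslinking enzyme PXDN (0.22, SE 0.06) and FREM1 (0.26, SE 0.07). Of 30 proteins linked to integrins inside the cell, 6 were higher, among them the actin crosslinker ACTN1 (0.21, SE 0.07), and LIMS1 was lower (-0.16, SE 0.08). Of 17 enzymes of dystroglycan sugar chains, on which laminin binding depends, 3 were higher and none lower. Of 20 other matrix receptors 2 were higher (GPC3 and BCAM) and none lower, of 22 other integrin ligands 3 were higher and 1 lower, and of 22 matrix proteases and inhibitors 6 were higher and none lower.

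**Figure D4:**
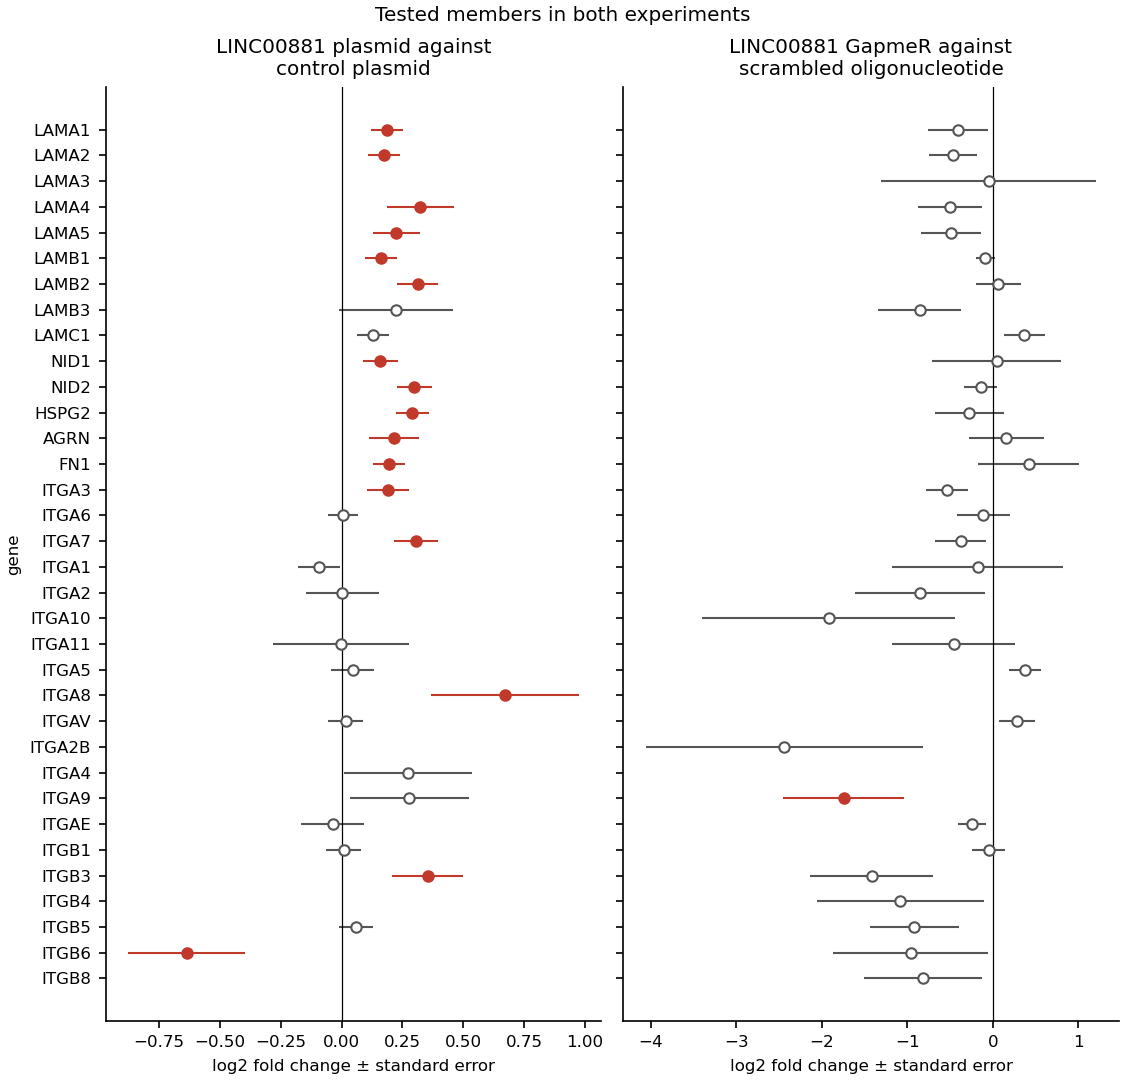
Log2 fold change and standard error of the tested members, leaving out 1 that is not reported, with LINC00881 plasmid against control plasmid (left) and with LINC00881 GapmeR against scrambled oligonucleotide (right); filled red points have an unadjusted p under 0.05, and the horizontal scales differ. On the left 15 members are called higher, and on the right ITGA9 alone is called, with far wider errors.

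The second comparison asked what loss of LINC00881 did to these genes. Of 33 members tested 1 was lower, ITGA9, and none was higher at an unadjusted p under 0.05 (edgeR), against 4.2% of all 18127 genes called higher and 4.15% called lower. No member passed adjustment, and no gene of all tested did. The median log2 fold change was -0.41 over the members and -0.01 over all genes, and no member had groups without overlap, against 3.08% of all genes higher and 3.37% lower without overlap. ITGA9 (chromosome 3, 37452115 to 37823514, plus strand), a receptor of tenascin and the EIIIA form of fibronectin, stood at 3.44, 2.49, 7.86 and 6.33 CPM with the scrambled oligonucleotide and at 0.36, 0.43, 2.21 and 2.98 CPM with the GapmeR. The groups overlapped across the replicate sets and were separate within each, and the log2 fold change was -1.75 (SE 0.71, adjusted p = 0.559 from edgeR). It was not called without scrambled replicate 3 or 4 or GapmeR replicate 1 or 2.

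With the replicate number as a block, 1 member was higher and 4 were lower, against 4.8% and 5.62% of all genes. Those lower were ITGA9 (log2 fold change -2.13, adjusted p = 0.377), LAMA4 (-0.47, adjusted p = 0.416), LAMA1 (-0.47, adjusted p = 0.441) and ITGA3 (-0.59, adjusted p = 0.475 from edgeR). The fibronectin receptor ITGA5 was higher (0.36, adjusted p = 0.414 from edgeR), with 62.68, 47.34, 70.44 and 56.25 CPM in the controls and 78.91, 55.07, 92.61 and 80.2 CPM with the GapmeR. With a term for the replicate set, ITGA9, LAMA1, LAMA4, LAMA2 and ITGB8 were lower and ITGA5 was higher, 5 and 1 of 33 against 7.22% and 6.6% of all genes.

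Values were also taken within each replicate set. In replicates 1 and 2, 15 members were lower and 1 was higher, against 13.7% and 13.4% of all genes, and 7 passed an adjusted p under 0.05, against 9.64% of all genes. In replicates 3 and 4, 7 were lower and 3 were higher, against 8.26% and 6.95%, and 2 passed adjustment, against 1.38%. These counts come from 1 fit of both sets. Each set was also fitted alone, with the filter on low counts run anew on its libraries. Replicates 1 and 2 then gave 11 of 33 members called, none after adjustment, and replicates 3 and 4 gave 16 of 38, with 11 after adjustment. Of all genes 18.8% and 26.1% were called, and 0.0% and 10.6% after adjustment. Such a filter can admit a member through the group where it is high, so the counts of these 2 fits are no support. The effect of the GapmeR differed between the sets at an adjusted p under 0.05 (interaction term, edgeR) for 5 members, against 5.67% of all genes, and at an unadjusted p under 0.05 for 13, against 22.7%. The 5 were ITGB1, LAMA2, ITGB3, ITGA2B and LAMA3. ITGA2B and LAMA3 passed the filter on low counts only through the libraries that make this difference. Their place in the counts by set and in this count is no support. The count of 5 ran from 0 to 14 when 1 library was left out, and was 0 without scrambled replicate 3, without scrambled replicate 4 and without GapmeR replicate 4.

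ITGB1 (chromosome 10, 32900319 to 33005792, minus strand) stood at 411.2, 410.3, 390.0 and 409.4 CPM with the scrambled oligonucleotide and at 289.5, 287.8, 502.4 and 487.7 CPM with the GapmeR. The 4 controls lay together, the first 2 GapmeR libraries lay below them and the last 2 above, and the pooled log2 fold change of -0.05 came from -0.51 (SE 0.09) in replicates 1 and 2 and 0.31 (SE 0.09) in replicates 3 and 4 (interaction adjusted p = 0.0116 from edgeR). LAMA2 (chromosome 6, 128883141 to 129516569, plus strand) stood at 43.5, 42.7, 46.33 and 42.94 CPM in the controls and at 20.29, 19.84, 45.38 and 41.65 CPM with the GapmeR. It was lower in replicates 1 and 2 alone, by a log2 fold change of -1.10 (SE 0.15), against -0.04 in the others (interaction adjusted p = 0.0258 from edgeR).

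ITGB3 stood at 0.95, 1.37, 11.05 and 8.18 CPM in the controls and at 2.39, 1.69, 2.43 and 1.57 CPM with the GapmeR. Here it was the controls that divided by set, and the log2 fold change was 0.81 (SE 0.41) in replicates 1 and 2 and -2.27 (SE 0.41) in replicates 3 and 4 (interaction adjusted p = 0.0219 from edgeR). ITGA2B, the platelet integrin alpha IIb, had 4, 0, 218 and 96 counts in the controls and 18, 34, 1 and 0 counts with the GapmeR. LAMA3, the alpha 3 chain of skin, had 14, 13, 1 and 6 counts against 0, 0, 15 and 17 counts. With libraries at or near 0 in both, the counts are given in place of a fold. Their interaction adjusted p was 0.0106 and 0.045 (edgeR). ITGA2B passed the filter on low counts through scrambled oligonucleotide replicates 3 and 4 and GapmeR replicates 1 and 2 alone. LAMA3 passed it through scrambled oligonucleotide replicates 1 and 2 and GapmeR replicates 3 and 4 alone. These p-values are therefore no support for a difference between the sets.

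LAMC1, NID1 and LAMA5 are given as well, although their difference between the sets did not pass adjustment. The interaction adjusted p was 0.0562 for LAMC1, 0.0729 for NID1 and 0.109 for LAMA5 (edgeR). LAMC1 stood at 158.5, 140.1, 167.0 and 175.2 CPM in the controls and at 157.7, 127.9, 274.9 and 266.4 CPM with the GapmeR. Its change in replicates 3 and 4 was upward (log2 fold change 0.66, SE 0.13, adjusted p = 0.051 from edgeR). NID1 stood at 17.3, 14.6, 45.61 and 60.94 CPM in the controls and at 9.22, 7.32, 72.77 and 53.45 CPM with the GapmeR. It was lower in replicates 1 and 2 (log2 fold change -0.95, SE 0.24), with an adjusted p of 0.0424 from edgeR in the fit of both sets and 0.177 with that set alone. In both groups its level was higher in replicates 3 and 4, and between the scrambled oligonucleotide libraries alone that difference was 1.74 (log2, adjusted p = 0.00508 from edgeR). LAMA5 stood at 33.81, 30.45, 78.8 and 80.21 CPM in the controls and at 36.37, 27.6, 48.09 and 47.14 CPM with the GapmeR. Its change in replicates 3 and 4 was downward (log2 fold change -0.74, SE 0.17, adjusted p = 0.0775 from edgeR).

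**Figure D5:**
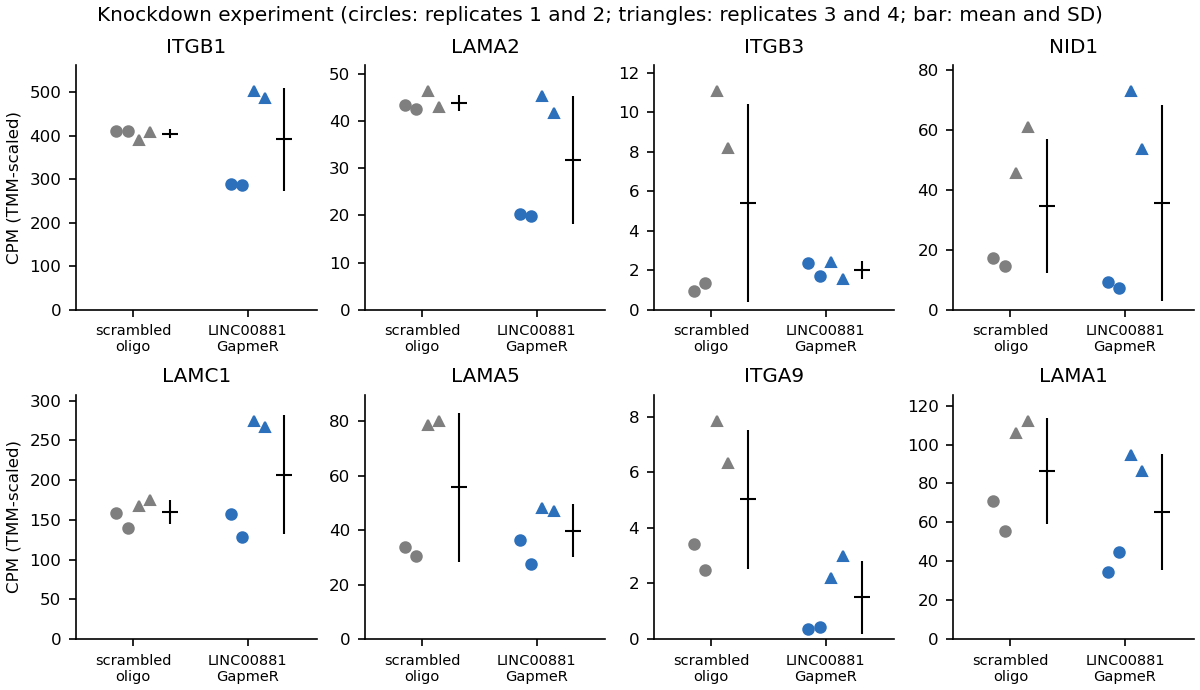
TMM-scaled CPM of 8 members in the knockdown experiment, 1 point per library; circles are replicates 1 and 2, triangles are replicates 3 and 4, and the bar gives the group mean and SD. ITGB1 with the GapmeR lies at 289.5 and 287.8 CPM in the circles and at 502.4 and 487.7 CPM in the triangles, while its controls lie together.

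Cell type markers divided by set too. The cardiomyocyte markers summed to 44220, 43190, 32390 and 31240 CPM in the scrambled oligonucleotide libraries and to 26000, 28140, 30290 and 29240 CPM with the GapmeR. Every GapmeR sum lay below every scrambled one. Replicates 1 and 2 had the higher sums with the scrambled oligonucleotide and the lower ones with the GapmeR. The fibroblast markers summed to 197.2, 195.9, 96.18 and 96.75 CPM and to 281.5, 187.5, 116.6 and 104.5 CPM, with FAP at 0 in both groups. The 8 epicardial markers summed to 506.8, 473.7, 218.2 and 197.1 CPM and to 722.8, 614.1, 214.3 and 190.5 CPM, with UPK3B at 0 with the GapmeR. The keratin gene KRT19, at 196 to 502 and 187 to 717 CPM, made up nearly all of these sums, and the other 7 genes stood at no more than 3.2 CPM each. The 7 smooth muscle markers summed to 606.6, 605.4, 1165 and 1124 CPM and to 602.7, 482.7, 1432 and 1415 CPM. The sum that KRT19 leads was higher, and that of the smooth muscle markers lower, in replicates 1 and 2 of both groups. Sums of fibroblast and endothelial markers were also higher there, and those of hepatic and endodermal markers lower. Blood and platelet markers and pluripotent markers did not divide alike in both groups. Their part in the results on the members was not tested.

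Of the related lists, 19 further basement membrane genes gave 2 lower (FRAS1 and FREM1) and none higher with the GapmeR, where 4.15% of all genes were lower and 4.2% higher, and 30 proteins linked to integrins inside the cell gave 6 lower, among them the talin TLN2 and the focal adhesion kinase PTK2, and 1 higher. Of 24 other integrin ligands 4 were higher, TNC, TGFB2, CCN2 and THBS1, and FBN2 was lower. By set, in the same order, these changed by 0.94 and 6.23 (TNC), 0.39 and 0.29 (TGFB2), 0.60 and 0.43 (CCN2), 0.93 and 0.08 (THBS1) and -0.41 and -0.19 (FBN2). Of 18 enzymes of dystroglycan sugar chains and of 20 other matrix receptors, 1 each was lower and none higher. Of 24 matrix proteases and inhibitors 3 were higher and 1 lower. None of these genes passed adjustment.

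The effects of overexpression and knockdown were compared in 1 fit of all 16 libraries. No member differed between them at an adjusted p under 0.05 (edgeR), against 0.0956% of all 17782 genes, and 4 of 34 members tested did at an unadjusted p under 0.05, against 11.1% of all genes. These were ITGA3 (difference of log2 fold changes 0.73, adjusted p = 0.285), ITGA9 (2.05, adjusted p = 0.335), ITGB3 (1.79, adjusted p = 0.387) and LAMA2 (0.63, adjusted p = 0.423 from edgeR), each higher with overexpression relative to knockdown.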

How the data were processed

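RNA-Seq was analysed in 16 libraries of hiPSC-CMs, 4 in each of 4 groups taken from the submitters' labels. The authors aligned reads with STAR 2.7.3a to Gencode release 38 and deposited raw counts per gene symbol, counted without strand and not normalized. Here each treated group was compared with its own control with edgeR 4.0.16 in R 4.3.3 (2-sided quasi-likelihood test, filterByExpr on low counts, TMM factors, robust dispersions), and p-values were adjusted by Benjamini-Hochberg over all genes tested. Standard errors are the log2 fold change divided by the square root of F. Members were called at an unadjusted p under 0.05, the study's cutoff. Exon length, GC content and overlaps came from GENCODE release 29 (GRCh38), which matched 40216 symbols (67.7%), and promoters from RefSeq (GRCh38.p14). Alternatives were DESeq2 1.42.0, its size factors, all genes with at least 1 count, limma-voom (limma 3.58.1), 1 fit of 16 libraries, a replicate block, offsets on length and GC content (splines, 5 degrees of freedom), terms for and fits within the replicate sets, and each library left out in turn. Same-numbered knockdown libraries deviated together (correlations 0.1527, 0.1391, 0.2291 and 0.1402), as did differently numbered ones of the same set (0.1124 to 0.2225), so the numbers cannot be told apart from the sets here, and the blocked values stand beside that result. The labels do not say what a replicate number stands for. The scripts were checked on simulated data. Full values by library are given for members called in either experiment or differing between the replicate sets, and levels for the leading chains and subunits. NID1, LAMC1, LAMA5 and ITGA5 were added after their values were seen. Some genes are counted in the totals but not reported by name here. Members and lists were chosen with earlier results of these data known.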

Additional observations from a re-analysis of the deposited data

Results flagged for a closer look

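Among 126 sets of 4 replicate values of the tested members, 5 held a library far from the other 3, where chance alone flags about 1 in 20. NID2 stood at 318.4 CPM in control plasmid replicate 4, against 259.4 to 266.3 CPM in the others, and at 150.4 CPM in GapmeR replicate 2, against 277.5 to 299.1 CPM. ITGB1 stood at 390.0 CPM in scrambled oligonucleotide replicate 3, against 409.4 to 411.2 CPM, a small gap in a tight group. ITGB5 stood at 122.6 CPM in scrambled oligonucleotide replicate 1, against 23.7 to 36.16 CPM. ITGA10, a collagen receptor of cartilage, stood at 2.34 CPM in GapmeR replicate 2, against 0.0 to 0.36 CPM.

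The effect of the GapmeR in replicates 3 and 4 differed from that in replicates 1 and 2 for 5 members by the interaction term of edgeR, a count that ran from 0 to 14 when 1 library was left out. The adjusted p was 0.0106 for ITGA2B, 0.0116 for ITGB1, 0.0219 for ITGB3, 0.0258 for LAMA2 and 0.045 for LAMA3. ITGA2B and LAMA3 passed the filter on low counts only through the libraries that make the difference, so these 2 are no support. The sets also differ in their run of tube numbers, the first run in replicates 1 and 2 and the next in replicates 3 and 4. What else separates the replicate sets is not given in the sources used here, and it was not tested.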

How the results depend on the processing

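With overexpression, the count of 16 members called was 0 with all 16 libraries in 1 fit and stayed within 1.5 times under the other 6 alternatives that kept every library, including 14 with the replicate block. It ran from 9 to 16 when 1 library was left out. With DESeq2, 2 members passed adjustment, and with limma-voom 4 did. With knockdown, the count of 1 became 3 with DESeq2, 3 with all genes with at least 1 count, 6 with limma-voom, 7 with all 16 libraries, 5 with the replicate block, 4 with the offsets, 6 with a term for the replicate set, 6 with that term and the offsets, 11 in replicates 1 and 2 alone and 16 in replicates 3 and 4 alone, and ran from 0 to 3 when 1 library was left out. The fit of replicates 3 and 4 alone tested 38 members. In the fits of 1 set the filter on low counts can admit a member through the group where it is high, so their counts are no support. Of 33 members, 8 had the sign opposite to the pooled fit in replicates 1 and 2 alone and 10 in replicates 3 and 4 alone. Of these, 3 were past the threshold in the set: ITGA2B at a fitted 3.64 (log2) in replicates 1 and 2 alone, which is no measure of size over controls with 4 and 0 counts, NID1 at -0.94 in replicates 1 and 2 alone, and ITGB1 at 0.33 in replicates 3 and 4 alone. The count of 5 members whose knockdown effect differed between sets became 8 with DESeq2 and 12 with all genes with at least 1 count, and ran from 0 to 14 when 1 library was left out; it was 0 without scrambled oligonucleotide replicate 3 or 4 or GapmeR replicate 4. No member differed between overexpression and knockdown after adjustment under any alternative, the replicate block included. The cause of these changes was not tested. Counts of a few reads limit ITGA8, ITGB6, LAMA3 and ITGA2B.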
